A study of Mus musculus with 12 samples.

Results

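Gk and G6pd2 code for 2 enzymes of carbohydrate and glycerol metabolism, and both were selected from an earlier look at these arrays because their levels moved in opposite directions with LPS. Each gene was read by 1 probe, CUST_12_PI419532418 for Gk and CUST_15_PI419532418 for G6pd2, which the array files pair with the genes through RefSeq transcript accessions. These are 2 of the 60694 probes left after control spots and spot flags, and 2 of 2 passed the filter on dim probes that kept 33692 probes for testing. Each probe sat on 20 spots of every array.

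The study used 12 1-colour arrays, 3 for each of 4 groups of RAW264.7, an established line of mouse macrophages. The DMSO cells were kept in the solvent for 24 h and the AdipoAI cells for as long in AdipoAI, a small-molecule agonist of the receptors for adiponectin, whereas AdipoAI+LPS cells were given AdipoAI over 24 h before LPS at 100 ng/ml was added for another 6 h. The LPS cells had LPS, a bacterial lipopolysaccharide that activates macrophages, for 6 h, and the labels give no time in vehicle before it. A difference in handling therefore cannot be told apart from AdipoAI in the comparison of the LPS-treated groups. The labels also give the groups without LPS no further 6 h. In LPS vs. DMSO and AdipoAI+LPS vs. AdipoAI, time in culture or vehicle therefore cannot be told apart from LPS. These differences also enter the interaction given further on. All groups are the same cell line, the dose of AdipoAI is not given in the sources used here, and nothing states that the 3 arrays of a group came from separate cultures, so the p-values measure only the spread between these samples, which may be technical. The cell type could not be checked, since 0 of 19 marker genes of macrophages, of the LPS response and of other cell types had a probe that the files pair with a gene.

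Glycerol kinase, the product of Gk, uses ATP to turn glycerol into glycerol-3-phosphate, which enters triglyceride and phospholipid synthesis or passes on to glycolysis. Glucose-6-phosphate dehydrogenase catalyses the first and rate-limiting step of the pentose phosphate pathway and yields NADPH. Activated macrophages use NADPH to make superoxide and nitric oxide and to keep glutathione reduced, and they store neutral lipid. The widely expressed form of the dehydrogenase comes from the X-linked gene G6pdx. G6pd2 is an autosomal copy of it that arose from a reverse-transcribed mRNA and is known for expression in male germ cells.

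The gene models differ. In RefSeq's annotation of the mouse assembly GRCm38.p6, G6pd2 on chromosome 5 spans 1635 bases and has 1 transcript, against 19398 bases for G6pdx. Gk lies on chromosome X, spans 74883 bases and has 8 transcripts. The sequences of the array probes are not given in the sources used here. Signal from G6pdx in the G6pd2 probe therefore cannot be told apart from signal of G6pd2. The same holds for signal from relatives of Gk, such as Gk2 and Gykl1, in the Gk probe. Values below are those of the probes.

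The 250 bases before the starts of both genes are unlike each other and are shown as a description. Any link between these sequences and the moves with LPS was not tested. The stretches come from RefSeq promoters of GRCm38.p6, with Gk at chrX:85776820-85777069 on the minus strand and G6pd2 at chr5:61808593-61808842 on the plus strand. Capitals mark matches to GGGCGG, a GC box of the Sp1 family, found here on the opposite strand, and to CACGTG, an E-box.
Gk: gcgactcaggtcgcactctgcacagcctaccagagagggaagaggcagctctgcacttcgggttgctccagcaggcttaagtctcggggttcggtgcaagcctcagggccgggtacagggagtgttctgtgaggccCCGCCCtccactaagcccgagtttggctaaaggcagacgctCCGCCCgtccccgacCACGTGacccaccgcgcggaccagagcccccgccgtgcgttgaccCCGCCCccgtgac
G6pd2: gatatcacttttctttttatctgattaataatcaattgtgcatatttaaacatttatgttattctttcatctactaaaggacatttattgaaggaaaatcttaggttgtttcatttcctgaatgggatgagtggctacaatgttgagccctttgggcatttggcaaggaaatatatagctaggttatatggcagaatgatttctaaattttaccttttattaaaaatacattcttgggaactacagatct

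The Gk stretch held 67.2% G or C and 21 CpG dinucleotides, and the G6pd2 stretch held 30.0% and 0. Over all 32851 promoters of the table the quartiles of G and C content were 45.2%, 52.4% and 61.2%, so Gk lay above the upper quartile and G6pd2 below the lower. GGGCGG had 3 matches upstream of Gk and CACGTG had 1, motifs that 32.7% and 6.0% of all promoters hold at least once. The other motifs searched on both strands were TATAAA, held by 12.4% of promoters, the CCAAT box (33.8%), the cyclic AMP response element TGACGTCA (1.5%), the AP-1 site TGACTCA (4.5%), the interferon response core of 2 GAAA runs set 2 bases apart (3.0%) and the NF-kB consensus (3.9%). None of these was found upstream of either gene, and G6pd2 held 0 matches of all 8. A match is a string of letters and no measure of binding.

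The copy can be followed at the start site itself. The windows of G6pd2 and G6pdx, each of 300 bases with 50 of them after the start, share the following run of 27 bases, which only these 2 of the 32851 windows hold. It is printed because it shows the closeness of the 2 genes on which the reading of the G6pd2 probe depends.
shared by G6pd2 and G6pdx: ctacagatctgtgaacgtgtttggcag
The run covers positions -10 to 17 around the G6pd2 start, and it lies at positions 16 to 42 from the G6pdx start.

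The arrays had 29298 to 32969 probes well above background, and their number limits the precision. All 240 spots of the Gk probe and all 240 of the G6pd2 probe over the 12 arrays were well above background, and 0 were saturated. Gk was the dimmer probe relative to its surroundings, with a signal of 3.61 to 9.60 times the local background, and the G6pd2 probe read 39.9 to 92.2 times the local background. The SD over spots of 1 array, on the log2 scale, had a median of 0.082 for Gk, with a range of 0.055 to 0.19, and of 0.037 for G6pd2, with a range of 0.028 to 0.058. These spots are repeats within an array and are not replicates. The scanner software marked 22 Gk spots and 6 G6pd2 spots as outliers, at most 4 and 2 on an array, and these were left out of the levels. The Gk spot farthest from its array was on DMSO replicate 3, where it read 1.11 above the mean of the spots used on the log2 scale.

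**Figure D1:**
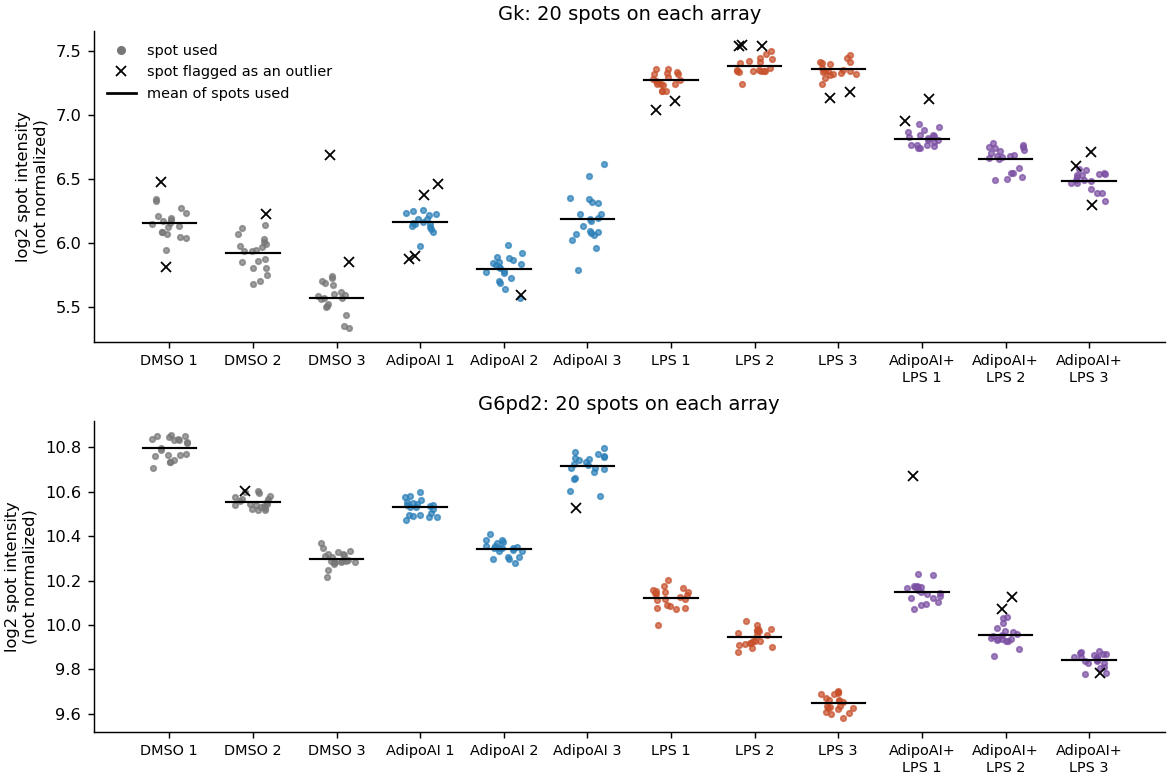
Log2 intensity of each of the 20 spots per array before normalization, for Gk (upper panel) and G6pd2 (lower panel), with the 12 arrays along the horizontal axis in colours by group. Crosses are spots marked as outliers and lines are the mean of the spots used. The spots of Gk scatter more on each array than those of G6pd2, and 1 Gk spot of DMSO replicate 3 stands well above the others.

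The arrays lay on 3 slides and were scanned in 2 batches. Slide 1 held the DMSO arrays and LPS replicate 1, slide 2 held LPS replicates 2 and 3 with AdipoAI replicates 1 and 2, and slide 3, scanned apart, held all 3 AdipoAI+LPS arrays with AdipoAI replicate 3. The LPS and AdipoAI+LPS arrays share neither slide nor scan, and AdipoAI is the only group with arrays in both scans.

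In the order of its means, Gk was lowest in DMSO cells, followed by AdipoAI and AdipoAI+LPS cells, and highest in LPS cells. Its level, the quantile-normalized log2 intensity, was 5.79, 5.80 and 5.78 in the DMSO arrays and 6.18, 5.82 and 6.12 in the AdipoAI arrays. It was 6.92, 6.80 and 6.68 in the AdipoAI+LPS arrays and 7.27, 7.23 and 7.43 in the LPS arrays. In this order no group overlapped its neighbour, but the gap between the highest DMSO array and the lowest AdipoAI array was only 0.019. AdipoAI replicate 2 sat beside the DMSO arrays, and that difference did not pass the test given further on. The order partly follows the move with LPS that chose the gene, and its share over all probes was not computed. For single pairs of neighbours, AdipoAI arrays lay wholly above DMSO arrays for 15.9% of probes. AdipoAI+LPS arrays lay wholly above AdipoAI arrays for 18.2% and wholly below LPS arrays for 19.6%. The means were 5.79 ± 0.0075 (SD, n = 3) in DMSO, 6.04 ± 0.19 in AdipoAI, 6.80 ± 0.12 in AdipoAI+LPS and 7.31 ± 0.11 in LPS cells. On the linear scale these correspond to geometric mean intensities of 55.4, 65.7, 111 and 159. The 3 DMSO arrays lay unusually close together after normalization. Before it, their mean Gk intensities over spots were 71.1, 60.4 and 47.5, a range of 0.58 on the log2 scale.

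G6pd2 ran the other way. Its log2 level was 10.16, 9.87 and 9.71 in the LPS arrays, 10.20, 10.18 and 10.08 in the AdipoAI+LPS arrays, 10.45, 10.42 and 10.42 in the DMSO arrays and 10.54, 10.30 and 10.60 in the AdipoAI arrays. LPS and AdipoAI+LPS arrays overlapped, with LPS replicate 1 inside the range of the AdipoAI+LPS arrays, and DMSO and AdipoAI arrays overlapped as well, with AdipoAI replicate 2 below all DMSO arrays. The lowest array of DMSO or AdipoAI cells was nonetheless above the highest array of either LPS-treated group. This separation follows the move with LPS that chose the gene, and its share over all probes was not computed. For single pairs of groups, LPS arrays lay wholly below DMSO arrays for 29.4% of probes. AdipoAI+LPS arrays lay wholly below AdipoAI arrays for 24.5%. The means were 9.91 ± 0.23 (SD, n = 3) in LPS, 10.15 ± 0.065 in AdipoAI+LPS, 10.43 ± 0.018 in DMSO and 10.48 ± 0.16 in AdipoAI cells, which correspond to geometric mean intensities of 965, 1139, 1376 and 1428. Levels of different probes are not on a common scale, so Gk and G6pd2 were compared only in how they moved. The arrays read bulk RNA, in which fewer cells that make a transcript and less of it per cell cannot be told apart.

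**Figure D2:**
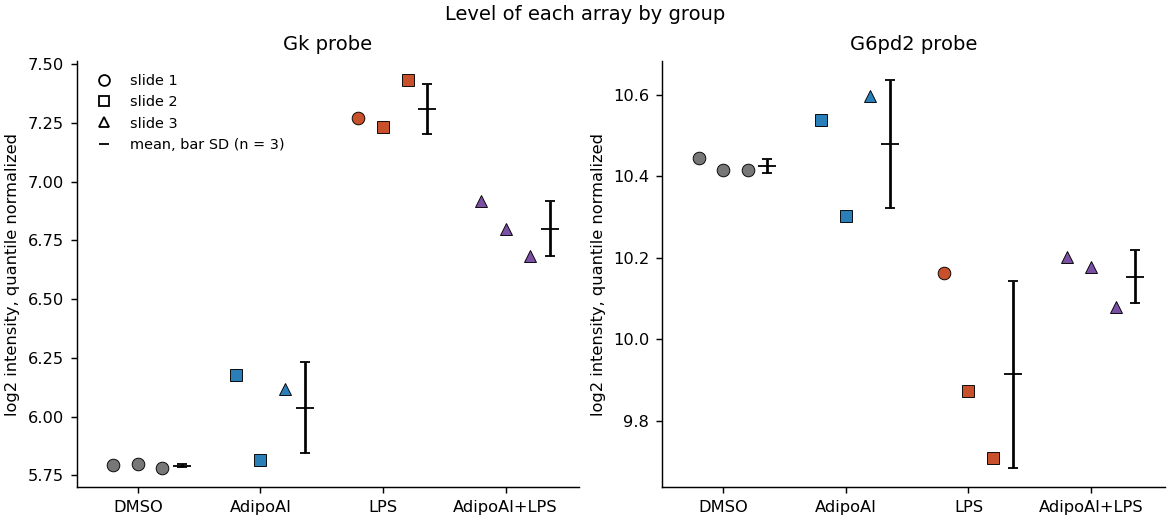
Quantile-normalized log2 intensity of the Gk probe (left) and the G6pd2 probe (right) on each array, by group, with the marker shape giving the slide and the bar giving mean and SD of 3 arrays. The vertical axes do not start at 0 and differ between panels. Gk spans 5.78 to 7.43 and stands highest in LPS cells, while G6pd2 spans 9.71 to 10.60 and stands lowest there.

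The move with LPS chose both genes, so it is given as a description without a test. The 95% intervals take no account of that choice. Gk was 1.52 higher on the log2 scale in LPS than in DMSO cells (SE 0.12, 95% interval 1.25 to 1.79), or 2.87-fold. The groups did not overlap, as was so with higher LPS arrays for 24% of all probes tested, and 9.64% of probes had a difference at least as large in either direction. G6pd2 was lower in LPS than in DMSO cells, with a log2 difference of -0.51 (SE 0.13, 95% interval -0.80 to -0.22), or 1.43-fold. Its groups did not overlap either, as was so with lower LPS arrays for 29.4% of probes, and 41.8% of probes had a difference at least as large. These shares describe the differences that chose the genes and are no result about them. They also set probes averaged over 20 spots, with SEs of 0.12 and 0.13, against probes with a median SE of 0.187. On slide 1, which held DMSO and LPS arrays together, LPS replicate 1 was 1.48 above the DMSO mean for Gk and at -0.26 from it for G6pd2.

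In cells that had AdipoAI first, the differences with LPS had the same directions. Whether they were smaller has no independent test, and for G6pd2 the order depended on the slides. Gk was 0.76 higher in AdipoAI+LPS than in AdipoAI cells (SE 0.12, 95% interval 0.49 to 1.03), which is 50.2% of its log2 difference in cells without AdipoAI. G6pd2 had a log2 difference of -0.33 (SE 0.13, 95% interval -0.62 to -0.036), or 1.25-fold lower, which is 63.8% of its difference without AdipoAI. For both genes the groups stood apart, as they did for 18.2% of all probes in the higher and 24.5% in the lower direction. With the slide as a block the G6pd2 difference was -0.26 in LPS vs. DMSO and -0.45 in AdipoAI+LPS vs. AdipoAI, so the larger of them was then the one with AdipoAI. On slide 3 the AdipoAI+LPS mean was 0.68 above AdipoAI replicate 3 for Gk and at -0.45 from it for G6pd2. The selection does not say in which cells the move with LPS was read, so this contrast has no test either. Its intervals also take no account of the choice.

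**Figure D3:**
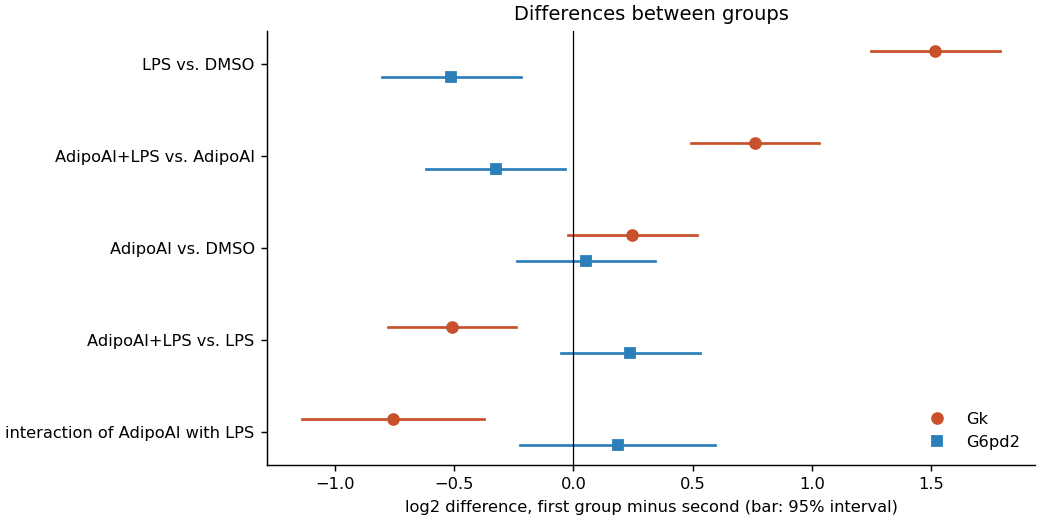
Log2 difference of the first group minus the second (horizontal axis, bars are 95% intervals) for Gk and G6pd2 in each contrast, with the interaction at the bottom. Gk lies above 0 in both LPS contrasts and G6pd2 below 0, and in AdipoAI+LPS vs. LPS the Gk interval ends below 0 while that of G6pd2 spans it. The bars take no account of the choice of the genes by their move with LPS.

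AdipoAI alone changed neither gene past the threshold. Of both genes, 0 were called in AdipoAI vs. DMSO, where 14.5% of all probes tested had an adjusted p under 0.05. Gk was 0.25 higher on the log2 scale in AdipoAI cells, with groups that did not overlap (15.9% of all probes in that direction), a 1.19-fold difference with an SE of 0.12, a 95% interval of -0.022 to 0.52 and an adjusted p of 0.205 with limma. G6pd2 differed by 0.054 with an SE of 0.13, a 95% interval of -0.24 to 0.34 and an adjusted p of 0.828 with limma. Within the first scan the difference was 0.21 for Gk, with an adjusted p of 0.381, and -0.0057 for G6pd2, with an adjusted p of 0.987, both with limma. Slide gives no within-slide value here, since DMSO and AdipoAI arrays share none. With the slide as a block the difference was 0.14 for Gk and 0.37 for G6pd2, with adjusted p of 0.877 and 0.552 with limma, and the G6pd2 value lies beyond the interval above. The DMSO arrays also entered the choice of the genes.

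Among LPS-treated cells, Gk was lower in those that had AdipoAI. Its level in AdipoAI+LPS cells was 0.51 below that in LPS cells on the log2 scale, a log2 difference of -0.51 with an SE of 0.12 and a 95% interval of -0.78 to -0.24. This is 1.42-fold lower (95% interval 1.18 to 1.72), with an adjusted p of 0.0166 with limma. All 3 AdipoAI+LPS arrays were below all 3 LPS arrays with a gap of 0.31, an arrangement seen in that direction for 19.6% of probes. Of both genes, 1 was called, against 17.1% of all probes tested and 8.9% called in the lower direction, and 27.5% of probes had a difference at least as large. That share does not mark the difference as unusual in size. It sets a probe averaged over 20 spots, with an SE of 0.12, against probes with a median SE of 0.187. The Gk level in AdipoAI+LPS cells was still 1.01 above that in DMSO cells, which is 66.4% of the difference of LPS cells from DMSO. These groups did not overlap, as with 25.6% of probes in that direction.

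The LPS arrays of this contrast also entered the choice of the gene, so the Gk difference is not independent of that choice and its p takes no account of it. A high reading on those arrays by chance would favour both the choice and a difference below 0. The contrast also lies wholly between scans and slides. No slide or scan held LPS and AdipoAI+LPS arrays together, so there is no within-batch value, and only the AdipoAI group has arrays in both scans. With the scan as a block the log2 difference was -0.63 and the adjusted p was 0.190, and with the slide as a block it was -0.65 with an adjusted p of 0.250, both with limma, so the call was lost. The size did not shrink, but with so few linking arrays the scan and the treatment cannot be told apart. Without LPS replicate 3 the difference was -0.45 with an adjusted p of 0.0678, and without AdipoAI+LPS replicate 3 it was -0.45 with an adjusted p of 0.054, both with limma.

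G6pd2 was 0.24 higher in AdipoAI+LPS than in LPS cells, and this difference did not pass the test. Its SE was 0.13, its 95% interval was -0.052 to 0.53, and its adjusted p was 0.241 with limma. It was 0.14 without LPS replicate 3, 0.36 without LPS replicate 1 (adjusted p 0.0938 with limma), 0.060 with the scan as a block and 0.076 without normalization. As for Gk, the LPS arrays also entered the choice of the gene. The LPS and AdipoAI+LPS arrays overlapped, and LPS replicate 1 read about as high as the AdipoAI+LPS arrays. The AdipoAI+LPS mean was at -0.27 from the DMSO mean, or 53.3% of the difference of LPS from DMSO, and these groups stood apart, as with 30.6% of probes in the lower direction.

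With LPS as a term, so that AdipoAI was averaged over cells with and without LPS, neither gene was called. The Gk difference was -0.13 with an SE of 0.14, a 95% interval of -0.44 to 0.18 and an adjusted p of 0.523 with limma, and that of G6pd2 was 0.15 with an SE of 0.096, a 95% interval of -0.063 to 0.36 and an adjusted p of 0.283. In this contrast 26.7% of all probes tested were called.

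The interaction is the difference between the move with AdipoAI in LPS-treated cells and that in untreated cells. The interaction contains the contrast with LPS that chose the genes, and its intervals take no account of that choice. It is therefore given as a description with no p. For Gk it was -0.76 with an SE of 0.17 and a 95% interval of -1.14 to -0.38, which sets a value of 0.25 without LPS against -0.51 with it. The Gk value was -0.71 when all 20 spots were kept and in the authors' processed table of the same arrays, and -0.84 or -0.80 with scan or slide as a block. With an array left out it ran from -0.87 to -0.69. For G6pd2 the interaction was 0.19 with an SE of 0.19 and a 95% interval of -0.23 to 0.60, and it was -0.18 with the slide as a block.

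**Figure D4:**
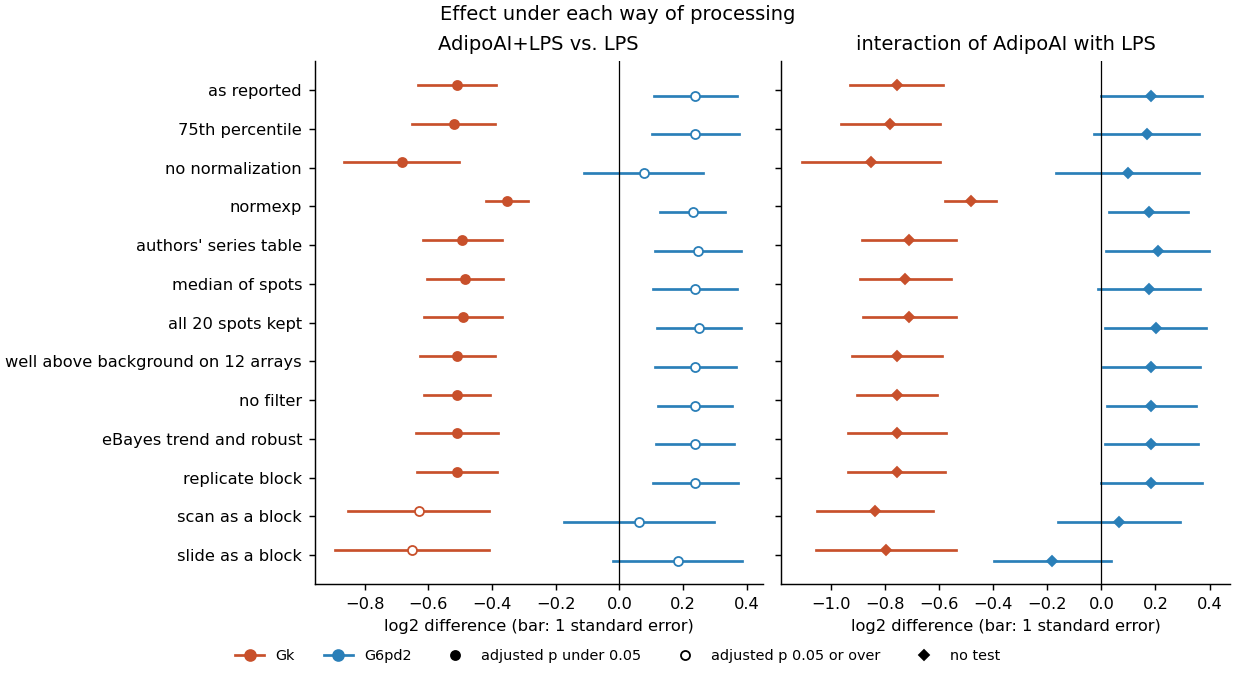
Log2 difference with 1 standard error for AdipoAI+LPS vs. LPS (left) and for the interaction (right) under each processing of the data, for Gk and G6pd2. Filled circles on the left had an adjusted p under 0.05 with limma, and diamonds on the right have no test. Gk stays below 0 throughout both panels, and on the left it is open with the scan or slide as a block while G6pd2 is never filled.

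Slide 2 held AdipoAI and LPS arrays side by side. There, AdipoAI replicates 1 and 2 were at -1.33 from LPS replicates 2 and 3 for Gk and 0.63 above them for G6pd2. These values come from the same arrays on which the genes were chosen.

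The pathway partners of these enzymes could not be followed. Of the prepared lists, 1 of 10 pentose phosphate genes (G6pd2), 1 of 13 glycerol and lipid genes (Gk), 1 of 17 glycolysis genes (Gapdh) and 0 of 12 genes of NADPH use had a probe that the files pair with a gene. Gapdh, the glycolytic glyceraldehyde-3-phosphate dehydrogenase, differed by -0.017 in LPS vs. DMSO and by -0.057 in AdipoAI+LPS vs. LPS on the log2 scale, with adjusted p of 0.904 and 0.699 with limma. Its group means, from 17.47 in AdipoAI+LPS to 17.55 in DMSO cells, were the highest of the probes with a gene name. Saturation was examined only for Gk and G6pd2, so a ceiling on the Gapdh value was not tested.

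The levels of Gk and G6pd2 over the 12 arrays had a Pearson r of -0.830 with each other. The pair was chosen for opposite moves with LPS on these arrays, which sets the sign of this r and the low rank of each gene for the other, and the arrays lie in 4 groups, so it is a description with no test. Of the 33691 other probes tested, 74 (0.22%) had an r of at least 0.97 with Gk and 159 (0.472%) an inverse r of at least that size, with extremes of 0.991 and -0.991. For G6pd2, 1 probe (0.00297%) reached 0.97 and 0 reached that size inversely, with extremes of 0.971 and -0.946. Among the 13 other probes that the files pair with a gene and that passed the filter, Gk was most like B2m (r 0.865), Actb (0.838) and Tfrc (0.454), and least like Hprt (-0.881), G6pd2 (-0.830) and Tuba1b (-0.826). G6pd2 was most like Gusb (0.748), Hprt (0.651) and Tuba1b (0.646), and least like Gk (-0.830), Actb (-0.791) and B2m (-0.779). These are mostly genes used as references, and they are named by rank among the few probes with a gene name. Their ranks are not independent of the move with LPS that chose Gk and G6pd2. In LPS vs. DMSO the log2 difference was 0.51 for B2m, 0.51 for Actb and 0.56 for Tfrc. It was -0.39 for Hprt, -0.31 for Tuba1b and -0.91 for Gusb.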

How the data were processed

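The authors' scanner files, from Agilent Feature Extraction 11.0.1.1 per the submitters' processing notes, hold per spot a deposited background-subtracted intensity, not normalized between arrays. The authors' deposited series table holds log2 values of the same arrays, made, per the methods, by quantile normalization. It held 60598 of the 60694 probes, so dim probes remain in it, with a Pearson r of 0.992 to 0.993 per array, and served as an alternative.

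Outlier spots of the 20-spot probes, control spots and 221 single-spot probes with an outlier flag were left out. Log2 spot values were averaged per probe and quantile normalized over 12 arrays. Probes that the scanner software called well above background on 3 or more arrays were fitted with limma (lmFit and eBayes), with Benjamini-Hochberg adjustment over all 33692, a call being an adjusted p under 0.05. The median SE of a difference was 0.187. The fit was tested on simulated data.

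The genes, lists and tests were chosen with earlier results of these data known. The planned test of the interaction is given without a p, since it contains the contrast that chose the genes. Named were both genes, the 3 probes with a gene name most and least like each, and Gapdh as a list member. Alternatives covered normalization, background (normexp, offset 50), spot summary, filter, variance model, the methods' threshold (log2 fold change of 1.5 or more in size with an unadjusted p under 0.05), replicate and scan blocks, and each array left out. Keeping all 20 spots and a slide block were added after seeing the data. Fits ran in R 4.3.3 with limma 3.58.1, and figures in matplotlib 3.10.9 under Python 3.11.15.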

Additional observations from a re-analysis of the deposited data

Results flagged for a closer look

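The move of Gk with AdipoAI had opposite signs in cells without and with LPS. It was 0.25 on the log2 scale in AdipoAI vs. DMSO, which did not pass the test, and -0.51 in AdipoAI+LPS vs. LPS, an interaction of -0.76. The DMSO and LPS arrays that chose the gene enter this value, so its test is not independent and it is not given as a finding. It ran from -0.85 to -0.48 in 14 alternatives other than leaving out an array.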

How the results depend on the processing

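Of 178 values of Gk and G6pd2 under alternatives other than leaving out an array, 158 kept their direction and their side of the threshold (or moved by less than the replicate spread) and 5 changed sign. With 1 array left out this held for 131 of 144, and 1 changed sign. These counts include the LPS differences that chose the genes and the interaction, so they are no evidence for either. Leaving out an array outside the groups of a contrast cannot change its difference. Nor can another filter, variance model or threshold, or the replicate block. Part of the kept values was therefore fixed in advance, and the counts are no measure of robustness. For the Gk interaction, which has no p here, 7 of 14 alternatives and 2 of 12 values with an array left out were kept. Kept rests there on the threshold of the test that is not given, so these counts are no result for or against the interaction. The value itself stayed below 0 throughout. The fall of Gk in AdipoAI+LPS vs. LPS was -0.35 with normexp and -0.68 without normalization, and was called in both. At -0.51 it missed the methods' threshold, and it lost its call with scan (-0.63) or slide (-0.65) as a block. It ran from -0.57 to -0.45 with an array left out. The Gk interaction, a description, was -0.85 without normalization, -0.71 in the authors' table and with all 20 spots kept, -0.84 with scan and -0.80 with slide as a block, and ran from -0.87 to -0.69 with an array left out. The sign changed for G6pd2 in AdipoAI vs. DMSO without normalization (-0.021), with scan as a block and within the first scan (both -0.0057), and ran from -0.0057 without AdipoAI replicate 3 to 0.14, while slide as a block gave 0.37. G6pd2 in AdipoAI+LPS vs. LPS ran from 0.14 to 0.36 with an array left out and was 0.060 with scan as a block. It also changed for Gk in AdipoAI with LPS as a term with scan as a block (0.067) and for the G6pd2 interaction with slide as a block (-0.18). The described LPS differences became 0.93 for Gk with normexp and -0.26 for G6pd2 with slide as a block. In AdipoAI+LPS vs. AdipoAI they became 0.60 (no normalization) and 0.44 (normexp) for Gk and -0.55 (no normalization) for G6pd2. The cause was not tested.

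Counts of probes called moved as follows. AdipoAI vs. DMSO gave 2896 without normalization, 612 at the methods' threshold, 322 with slide as a block and 2642 to 5444 with an array left out, with 2642 without DMSO replicate 2, 3088 without DMSO replicate 1 and 2949 without AdipoAI replicate 1. AdipoAI+LPS vs. LPS gave 820 at the methods' threshold, 1041 with scan and 727 with slide as a block. AdipoAI with LPS as a term gave 465, 2642 and 249 in the same order. The interaction gave 556 without normalization, 1651 with normexp, 601 at the methods' threshold, 349 with slide as a block and 673 to 1030 with an array left out, with 673 without DMSO replicate 2 and 688 without LPS replicate 3. LPS vs. DMSO gave 8124 with slide as a block, and AdipoAI+LPS vs. AdipoAI gave 6779 with scan and 6574 with slide as a block and 2254 within the second scan. Without normalization the median log2 difference of all probes was -0.11 in AdipoAI vs. DMSO, -0.18 in AdipoAI+LPS vs. LPS, -0.14 with LPS as a term and -0.16 in AdipoAI+LPS vs. AdipoAI. The Gk and G6pd2 values without normalization carry this shift.

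Replicate numbers did not pair the arrays: 1 of 18 pairs had a correlation of deviations over 0.1 and 0 of 12 arrays correlated best with their own number. With the replicate block, Gk in AdipoAI+LPS vs. LPS was -0.51 with an adjusted p of 0.0315 with limma, and the interaction stayed at -0.76. Probes called were 3744 in AdipoAI vs. DMSO, 4768 in AdipoAI+LPS vs. LPS and 732 in the interaction.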
